A study of Mus musculus with 7 samples.

Results

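The hypoxia-response genes examined here were a fixed set of 10, Hif1a, Vegfa, Adm, Ankrd37, Egln1, Egln3, Bnip3, Ndrg1, Car9 and Ddit4, read in RNA of mouse pancreatic islets. Their members were found by matching each array probe's transcript accession to a RefSeq gene symbol, and every probe was kept, which gave 14 probes for the 10 genes out of 56605 probes and 22911 gene symbols on the array. Enzymes of glycolysis were left out of the set. The series compared 4 islet samples of Wnt4βKO mice, which carried the Pdx1CreER transgene and Wnt4 fl/fl alleles, with 3 of Wnt4 fl/fl littermates without the transgene. Mice of both groups received tamoxifen by gavage at 4 to 5 weeks of age and gave islets at 7 weeks, so that floxed alleles and tamoxifen were common to both groups and Cre was not. The Cre recombinase is driven by the Pdx1 promoter, which is active mainly in β-cells, so that other cells of the islet keep Wnt4. The methods describe male animals and islets freed by collagenase, separated on a density gradient and picked by hand.

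Cells sense oxygen through hypoxia-inducible factor, HIF, a transcription factor of an α subunit such as the product of Hif1a and a β subunit. With oxygen present, prolyl hydroxylases encoded by Egln1 and Egln3 mark the α subunit, which is then bound by the VHL ubiquitin ligase and degraded. When oxygen is short the α subunit persists, enters the nucleus and raises a set of genes that serve blood vessel growth (Vegfa, Adm), acid balance (Car9), mitochondrial turnover (Bnip3) and restraint of growth signalling (Ddit4). Islets lose their blood supply on isolation, and β-cells with an active HIF pathway release less insulin in response to glucose.

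HIF binds short DNA sites whose core is ACGTG or GCGTG. A RefSeq promoter window, the 250 bases before the annotated gene start in mouse build GRCm38.p6, was at hand for 9 of the 10 genes, all but Ndrg1, and Vegfa had a pair of starts, which made 10 windows. Both cores were searched on both strands, counting CACGTG as a match on each strand, and 9 of the 10 windows held at least 1 match, where 38.6% of 32851 windows over all genes did. At least 2 matches lay in 7 of the 10 windows, against 16.7% of all windows. Both counts include the window of the downstream Vegfa start, which lies past the upstream start of that gene. The window of the upstream Vegfa start held no match. These matches describe the letters only and are no evidence of binding in islets. The 3 windows with most matches, those of Bnip3 (5), Ankrd37 (4) and Hif1a (3), are printed because their genes were detected on every array, with Ddit4 as the member that varied most and Adm as a member with 2 matches that was hardly detected. Sequences run 5′ to 3′ on the gene's strand in lower case, and capitals mark the matched cores on either strand.
Bnip3 (chr7:138909507-138909756, - strand): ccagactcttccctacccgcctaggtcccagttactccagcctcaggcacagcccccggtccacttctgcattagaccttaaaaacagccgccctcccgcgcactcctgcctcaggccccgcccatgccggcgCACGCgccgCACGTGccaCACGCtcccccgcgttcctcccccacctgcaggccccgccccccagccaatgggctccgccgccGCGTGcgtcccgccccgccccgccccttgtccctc
Ankrd37 (chr8:45999851-46000100, - strand): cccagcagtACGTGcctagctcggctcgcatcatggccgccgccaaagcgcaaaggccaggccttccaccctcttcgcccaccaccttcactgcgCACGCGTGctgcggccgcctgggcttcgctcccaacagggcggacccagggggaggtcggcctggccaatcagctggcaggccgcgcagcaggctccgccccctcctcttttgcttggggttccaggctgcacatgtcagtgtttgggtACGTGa
Hif1a (chr12:73907617-73907866, + strand): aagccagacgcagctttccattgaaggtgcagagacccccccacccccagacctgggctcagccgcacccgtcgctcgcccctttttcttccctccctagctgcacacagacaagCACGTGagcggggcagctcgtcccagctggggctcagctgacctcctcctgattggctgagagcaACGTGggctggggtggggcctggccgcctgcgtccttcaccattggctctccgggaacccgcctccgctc
Ddit4 (chr10:59951771-59952020, - strand): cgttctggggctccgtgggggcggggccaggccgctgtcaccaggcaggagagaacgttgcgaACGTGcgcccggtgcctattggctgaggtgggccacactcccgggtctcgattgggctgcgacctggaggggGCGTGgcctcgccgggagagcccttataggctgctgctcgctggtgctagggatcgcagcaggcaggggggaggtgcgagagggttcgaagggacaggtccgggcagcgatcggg
Adm (chr7:110627407-110627656, + strand): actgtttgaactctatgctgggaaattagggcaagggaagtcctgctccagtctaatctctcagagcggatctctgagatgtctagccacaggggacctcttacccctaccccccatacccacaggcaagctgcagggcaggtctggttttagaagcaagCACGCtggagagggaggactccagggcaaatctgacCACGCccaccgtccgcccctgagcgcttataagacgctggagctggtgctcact

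**Figure D1:**
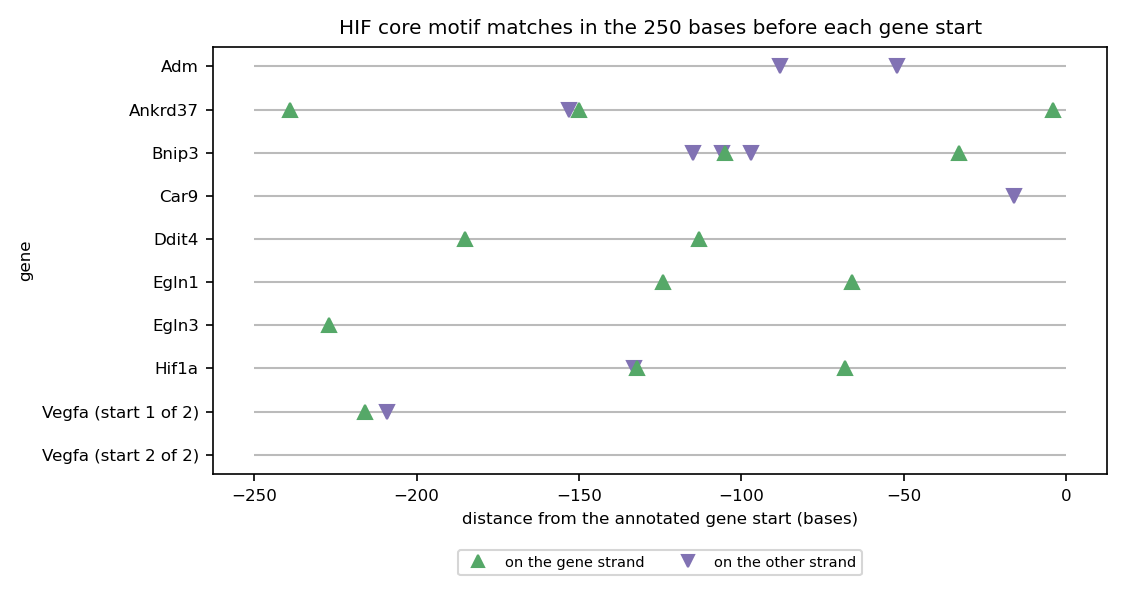
Positions of the HIF core motif matches (triangles, pointing up for the gene's strand and down for the other) along the 250 bases before each gene start, with distance in bases on the x axis and 1 line per window. Bnip3 held 5 matches and Ankrd37 4, and the upstream Vegfa window, start 2 of 2, held none.

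All 7 samples were hybridised on 1 slide, and between 45.5% and 49.0% of the 59305 spots that are not controls were well above background on each array, with no saturated spot. Precision is limited by having only 7 arrays. Values are log2 signals after background correction and quantile normalization, and differences are Wnt4βKO minus control, tested with limma over all 26151 probes that were well above background on at least 3 arrays. Levels can be compared between arrays for a probe but not between probes. Signals are listed by replicate number throughout, which runs from 2 to 4 for the controls and from 1 to 4 for the Wnt4βKO islets. Markers of β-cells (9 of 9), α-cells (6 of 6) and δ- and PP-cells (4 of 4) were all detected by that rule, and so were 21 of 21 markers of exocrine acinar cells. Wnt4 itself had 11.55, 11.17 and 11.80 in the controls and 11.32, 10.82, 11.01 and 10.90 in the Wnt4βKO islets. The groups overlapped, and the difference was -0.49 ± 0.17 (SE), which put the Wnt4βKO mean at 71.0% of control. The unadjusted limma p was 0.0237 and the adjusted one 0.651. The paper reports a reduced Wnt4 transcript by qPCR in Wnt4βKO islets. It calls this an underestimate, since islet preparations hold many cells that were not targeted.

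Of the 10 genes, 7 were detected on every array: Hif1a, Vegfa, Ankrd37, Egln1, Bnip3, Ndrg1 and Ddit4. Adm, Egln3 and Car9, which rise steeply in hypoxic cells, lay at or near background. Egln3, the oxygen-sensing hydroxylase that is itself a HIF target, was above background on none of the arrays, and its log2 signal lay between 5.72 and 5.82 on all 7. Adm, which encodes the vasodilator peptide adrenomedullin, was well above background on 1 of 3 control and 0 of 4 Wnt4βKO arrays, with signals between 5.75 and 5.97. Car9, a membrane carbonic anhydrase, had a probe that was above background on 2 of 3 control and 1 of 4 Wnt4βKO arrays and another that was above it on none. The lowest signal called well above background on an array lay between 5.65 and 5.84. This was no fixed limit, since some Car9 signals above 5.84 were not called. A difference between the groups in signals that were not called could not be seen for these genes. By the filter, 8 genes with 10 probes were tested, Adm and Egln3 were not, and 46.2% of all probes were tested.

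No hypoxia-response gene differed between Wnt4βKO and control islets beyond the spread between samples. None of the 8 tested genes passed an adjusted limma p of 0.05, where 3 of 13666 tested genes, 0.022%, did, and none passed an unadjusted limma p of 0.05, where 8.99% of genes did (4.38% higher and 4.61% lower). The same held for all 10 tested probes of these genes, beside 0.0153% of all probes with an adjusted and 7.02% with an unadjusted limma p below 0.05. For none of the 8 did all Wnt4βKO arrays lie above or below all control arrays, which was the case for 8.38% of genes, 4.08% with the Wnt4βKO arrays higher and 4.3% with them lower. The log2 differences lay between -0.29 for Ddit4 and 0.24 for Ndrg1, with 3 above 0 and 5 below (51.5% of all genes lay above 0), and their median was -0.064 beside 0.0054 over all tested genes. The smallest adjusted limma p among the 8 genes was 0.808, for Bnip3. These results do not show that the genes were alike in both groups, since the 95% intervals still allowed changes from 0.559-fold (Ddit4) to 1.76-fold (a Vegfa probe). In a simulation on 26102 probes, 28% of probes given a log2 change of 0.5 reached an adjusted limma p of 0.05. With a change of 1, 80% did. Each share rests on 50 probes drawn at random from the tested ones. The tested members varied more, with a median SD within groups of 0.30 against 0.18 over all genes. The simulation also planted changed probes with noise independent between probes, and more changed probes make the adjusted threshold easier to pass. In the data 4 of 26151 probes passed it. These shares therefore need not hold for the members. Because whole islets were measured, fewer cells that express a gene cannot be told apart from less RNA per cell.

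**Figure D2:**
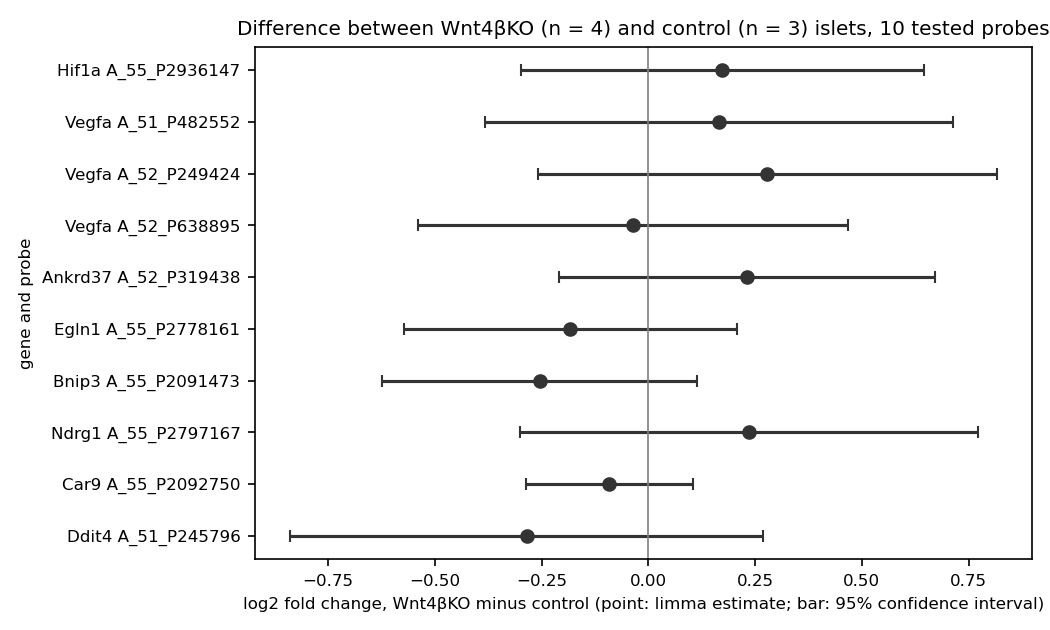
Log2 fold change (x axis, Wnt4βKO minus control) of the 10 tested probes, listed by gene and probe on the y axis, with the limma estimate as a point and its 95% confidence interval as a bar. Every interval includes 0, and the estimates run from -0.29 for Ddit4 to 0.28 for a Vegfa probe.

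Hif1a, the oxygen-regulated subunit, gave log2 signals of 7.10, 7.99 and 7.38 in control islets. In Wnt4βKO islets it gave 7.79, 7.73, 7.49 and 7.65. All Wnt4βKO arrays fell inside the range of the controls, whose SD of 0.46 was larger than the 0.13 of the Wnt4βKO arrays. The log2 difference was 0.17 ± 0.20 (SE), a 1.13-fold level with a 95% interval from 0.813 to 1.57 and an adjusted limma p of 0.910. The message reports little on HIF activity by itself, because the α subunit is controlled mainly through its degradation. Without control replicate 3, which had the highest value, the difference was 0.42. The unadjusted limma p was 0.0126 and the adjusted one 0.691. The groups then no longer overlapped, as was bound to follow, since no other control lay above any Wnt4βKO array. Without control replicate 2, which had the lowest value, the difference was -0.021.

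Egln1 encodes the main hydroxylase that marks the HIF α subunit in normal oxygen. Its log2 signals were 8.92, 8.88 and 8.50 in control islets and 8.41, 8.96, 8.53 and 8.43 in Wnt4βKO islets. Wnt4βKO replicate 2 was the highest of all arrays while the other Wnt4βKO arrays lay close to control replicate 4, the lowest control. The difference was -0.18 ± 0.17 (SE), and the adjusted limma p was 0.882. With single arrays left out it ran from -0.11 (without control replicate 2) to -0.32 (without control replicate 4), at -0.31 without Wnt4βKO replicate 2 with an unadjusted limma p of 0.054, and it was -0.0072 with the processed signal.

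Vegfa encodes the growth factor by which β-cells maintain the capillaries of the islet, and it was measured by 4 probes. The brightest, A_52_P638895, gave 9.47, 10.14 and 9.54 in control islets and 9.35, 9.56, 10.06 and 9.75 in Wnt4βKO islets. Its difference was -0.036 ± 0.22 (SE), with an adjusted limma p of 0.987 and a 95% interval from 0.688-fold to 1.38-fold. The next, A_52_P249424, gave 9.0, 8.29 and 8.52 in control and 8.65, 8.85, 8.64 and 9.39 in Wnt4βKO arrays, with a difference of 0.28 ± 0.23 (SE) that ran from 0.11 without Wnt4βKO replicate 4 to 0.47 without control replicate 2, and was 0.12 without control replicate 3. The third, A_51_P482552, gave 8.30, 8.33 and 7.51 in control and 7.83, 8.22, 8.40 and 8.39 in Wnt4βKO arrays, with a difference of 0.17 ± 0.23 (SE). The 3 probes did not order the arrays alike: control replicate 3 was the highest of the controls on the first and the lowest of them on the next. The fourth probe, A_55_P2741794, was above background on none of the arrays.

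Bnip3 encodes an outer mitochondrial membrane protein that directs mitochondria to autophagy. Its log2 signals were 11.85, 11.82 and 11.31 in control islets and 11.27, 11.41, 11.65 and 11.30 in Wnt4βKO islets. The top values were those of control replicates 2 and 3, whereas control replicate 4 lay among the Wnt4βKO arrays. The difference of -0.25 ± 0.16 (SE) put the Wnt4βKO mean at 83.9% of control, with a 95% interval from 64.9% to 108%. Without control replicate 4, the only control below any Wnt4βKO array, the difference was -0.43. All Wnt4βKO arrays were then bound to lie below the remaining controls, and the unadjusted limma p was 0.0129 with an adjusted value of 0.581. The difference was -0.16 without control replicate 2 and -0.067 with the mean of acinar markers as a covariate. It was -0.021 with the scanner's processed signal in place of normexp.

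Ankrd37 encodes an ankyrin repeat protein and is a direct HIF target with several core matches in its promoter window above. It gave 6.43, 7.04 and 6.35 in control islets and 7.03, 6.97, 6.62 and 6.72 in Wnt4βKO islets. All Wnt4βKO arrays lay above control replicates 2 and 4 but below control replicate 3. The difference was 0.23 ± 0.19 (SE), with an adjusted limma p of 0.866. Leaving out control replicate 3, the only control above any Wnt4βKO array, was bound to end the overlap. The difference was then 0.43, and the unadjusted limma p was 0.0171 with an adjusted value of 0.709. It was 0.10 without control replicate 4, 0.15 without control replicate 2 and 0.49 with a normexp offset of 0.

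Ndrg1 is induced by hypoxia and by other stresses, and its product takes part in differentiation and vesicle traffic. Its log2 signals were 10.20, 10.30 and 10.78 in control islets and 10.63, 10.49, 11.19 and 10.33 in Wnt4βKO islets. Wnt4βKO replicate 3 had the highest value and the groups overlapped through control replicate 4. The difference was 0.24 ± 0.23 (SE), with an adjusted limma p of 0.888. Without control replicate 4 it was 0.41 with no overlap, as was bound to follow, and the unadjusted limma p was 0.123. It was 0.058 without Wnt4βKO replicate 3 and 0.12 without control replicate 2.

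Ddit4, also known as Redd1, inhibits the growth kinase complex mTORC1 and responds to hypoxia, glucocorticoids and energy stress. It gave 9.60, 9.59 and 10.47 in control islets and 9.52, 9.68, 9.33 and 9.86 in Wnt4βKO islets. Control replicate 4 stood above every other array, by 0.60 over the next. The difference was -0.29 ± 0.24 (SE), with an adjusted limma p of 0.868, and it was 0.0064 without control replicate 4 and -0.43 without control replicate 2 or 3. The arrays lay in 2 rows of the slide, and the difference was -0.87 in the row that held control replicate 4 and 0.0043 in the other. Between the same rows the difference changed sign for Ankrd37 (0.65 and -0.063), Egln1 (0.19 and -0.42) and Bnip3 (0.026 and -0.36). It did so too for Ndrg1 (-0.22 and 0.51) and the brightest Vegfa probe (-0.083 and 0.10). Control replicate 4 was the only control in its row, so the first value of each pair rests on that array. Neither row held more than 2 arrays of a group.

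Car9 was tested on 1 probe, which lay near background throughout. Its log2 signals were 5.89, 5.95 and 6.08 in control islets and 5.77, 5.98, 5.90 and 5.89 in Wnt4βKO islets. These lie so close to the lowest detectable signals that their order carries little information, and the difference was -0.092 ± 0.083 (SE), for which limma gave an adjusted p of 0.882. Its size depended on how background was treated: it was -0.23 without background correction, -0.57 with a normexp offset of 0 and -1.13 with the processed signal, where the unadjusted limma p was 0.079 and the adjusted one 0.752.

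**Figure D3:**
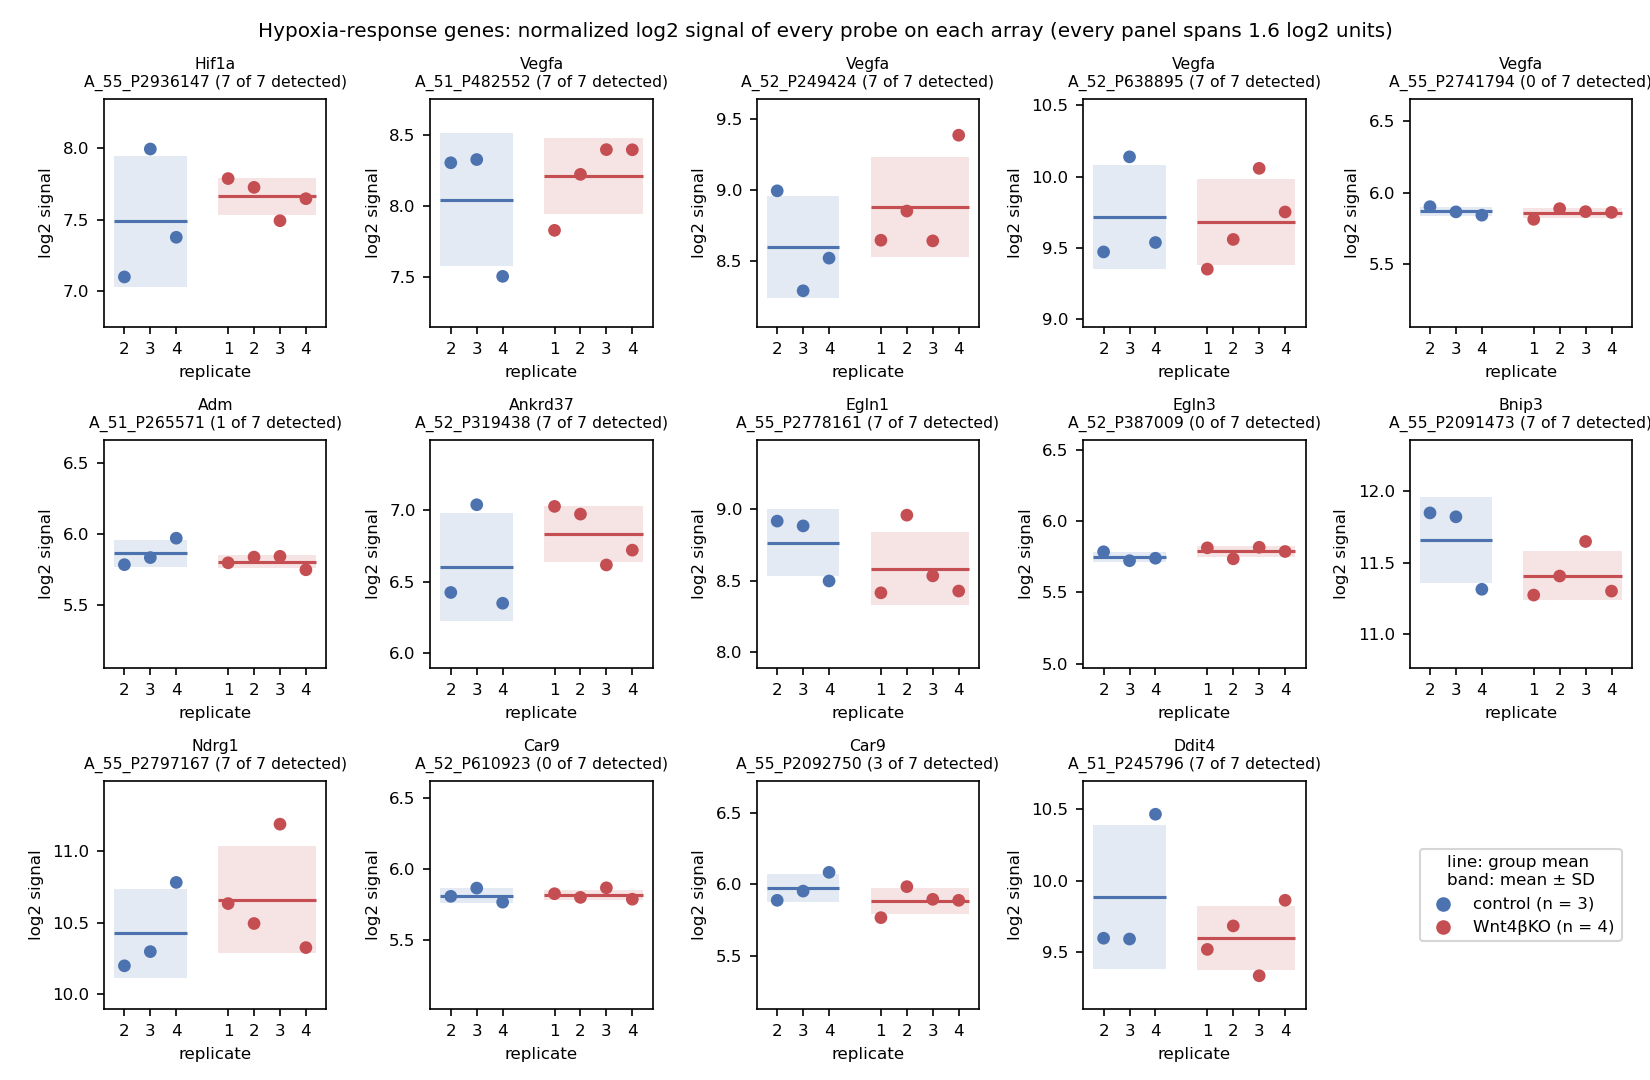
Normalized log2 signal (y axis) of all 14 probes of the 10 genes on each array, by replicate number (x axis), in blue for control (n = 3) and red for Wnt4βKO (n = 4), with group means as lines and mean ± SD as bands. Titles give how many of the 7 arrays were well above background, and the Adm, Egln3 and Car9 panels are nearly flat near background while Ddit4 has control replicate 4 at 10.47.

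The detected members varied more from sample to sample than most genes did. Genes were not matched by signal level, so whether the members varied more than genes of like signal was not tested. The SD within groups had a median of 0.30 over the 8 tested members and of 0.18 over all tested genes. It was 0.36 for Ddit4, 0.35 for Ndrg1, 0.33 for Vegfa and 0.31 for Hif1a, each larger than in at least 82.2% of tested genes, and 0.094 for Car9 near background. The SD was larger among controls than among Wnt4βKO arrays for 6 of the 8, where this held for 49.4% of genes.

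No single array was high for the whole set. Control replicate 3 had the highest value for 3 of 8 members (17.5% of all tested genes had their highest value there), control replicate 4 for 2 (15.7%), and Wnt4βKO replicates 1 and 4 for none (19.7% and 15.8%). Wnt4βKO replicate 1 had the lowest value for 4 of 8 members (18.0% of genes). The members' median deviation from their mean over arrays ran from -0.18 in Wnt4βKO replicate 1 to 0.26 in control replicate 3, while the medians over all genes stayed between -0.022 and 0.0063. In control replicate 3 Hif1a, Vegfa, Ankrd37, Egln1 and Bnip3 were above their own means by 0.22 to 0.44, but Ndrg1 and Ddit4 were below theirs, by -0.26 and -0.13. In control replicate 4 Ndrg1 and Ddit4 were above their means by 0.22 and 0.74, whereas those same 5 genes lay below theirs.

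**Figure D4:**
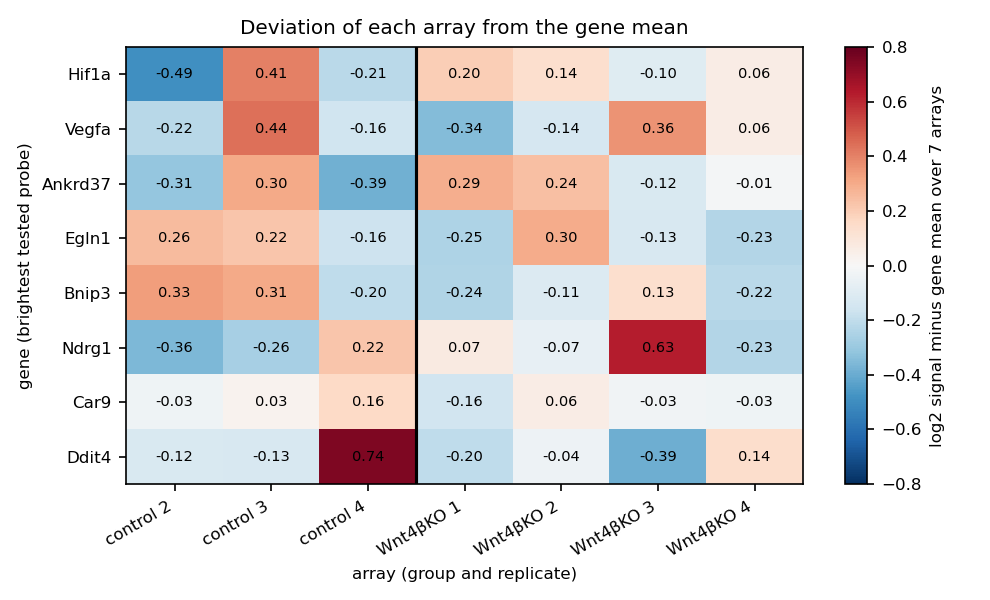
Log2 signal minus the gene's mean over the 7 arrays, as colour and number, for the brightest tested probe of 8 genes (rows) on each array (columns, controls left of the line). Control replicate 4 differs most for Ddit4 (0.74) and Wnt4βKO replicate 3 for Ndrg1 (0.63), and no column has 1 colour throughout.

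The tested members were compared pairwise across the 7 arrays to see whether they rose and fell together. Over 28 pairs Pearson's r had a median of -0.041 and ranged from -0.498 to 0.904, with 12 pairs above 0. The highest was that of Hif1a and Ankrd37, whose order over the arrays was the same except that control replicates 2 and 4 changed places. Pearson's r was 0.904 (exact permutation p = 0.00298, adjusted over the 28 pairs 0.0833) and Spearman's rho 0.964 (exact permutation p = 0.00278, adjusted 0.0778). It remained at 0.979 without control replicates 2 and 3, the arrays farthest from the Hif1a median. No pair passed 0.05 after adjustment, and the rows of the slide hold too few arrays for values within them.

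Hif1a also moved with the overall brightness of the arrays, taken as the 75th percentile of the processed signal before normalization, which was lowest in control replicate 2 (44.4) and highest in control replicate 3 (82.4). Pearson's r with its log2 was 0.828 for Hif1a (exact permutation p = 0.0276, adjusted over 8 genes 0.221) and Spearman's rho 0.893 (exact permutation p = 0.0123, adjusted 0.0984). For Ankrd37 Pearson's r was 0.670 (exact permutation p = 0.0889, adjusted 0.356) and rho 0.821 (exact permutation p = 0.0341, adjusted 0.137). An r at least as high was found for 1.52% of tested genes in the case of Hif1a and for 6.06% in that of Ankrd37. Without control replicates 2 and 3 the r fell to 0.260 and 0.387, so that both relations rest on those arrays. For the other 6 members r lay between -0.144 and 0.516. The part of array brightness in the values of Hif1a and Ankrd37 was not tested.

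Other genes of the pathway were read from lists compiled for this comparison. Of 15 HIF subunits and regulators of oxygen sensing, 14 were tested, none passed an adjusted limma p of 0.05 and 2 passed an unadjusted one, both lower in Wnt4βKO islets. Cited2, a HIF target whose product competes with HIF for its coactivators, gave 10.11, 9.33 and 9.74 in control islets and 8.34, 8.79, 9.01 and 8.97 in Wnt4βKO islets. Every Wnt4βKO array lay below every control array, with a difference of -0.96 ± 0.22 (SE), an unadjusted limma p of 0.00323 and an adjusted one of 0.480. Vhl, the recognition subunit of the ligase that degrades HIF, gave 7.07, 7.32 and 7.10 in control and 6.91, 6.87, 6.70 and 6.76 in Wnt4βKO arrays, also without overlap. Its difference was -0.35 ± 0.094 (SE), with an unadjusted limma p of 0.00680 and an adjusted one of 0.547. The unadjusted limma p rose to 0.0659 for Cited2 with the acinar covariate (-0.65) and to 0.0817 for Vhl under median scaling (-0.40). Without Wnt4βKO replicate 2 the list held 5 such calls. The other α subunits Epas1 and Hif3a differed by 0.18 and -0.023, the β subunit Arnt by 0.023, the asparaginyl hydroxylase Hif1an by -0.065 and the hydroxylase Egln2 by 0.31, each with an adjusted limma p of at least 0.783. These 5 genes had overlapping groups.

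Of 40 further HIF targets outside glycolysis, 33 were tested and none passed an adjusted limma p of 0.05. At an unadjusted limma p of 0.05, 3 were higher and 4 lower, and the median difference over the 33 was 0.0062. Over 20 alternatives such calls numbered between 0 and 7. They numbered 0 when the mean of acinar markers was a covariate and 1 under median scaling. There were 2 with the replicate number as a block and 3 without control replicate 3 or 4. Calls over all tested genes fell as well, from 8.99% to 3.21% with the acinar covariate and 3.47% under median scaling. The acinar mean was lower in every Wnt4βKO array than in any control, so that fit cannot separate it well from the group. Pdk1, the kinase that closes pyruvate dehydrogenase, differed by 0.44 ± 0.14 (SE), and Zfp395, a zinc finger protein, by 0.26 ± 0.081 (SE), with all Wnt4βKO arrays above all control arrays for both. Insig2, which restrains sterol synthesis, differed by -0.23 ± 0.072 (SE) without overlap, and the glucose transporter Slc2a1 by -0.36 ± 0.12 (SE) with overlap. The adjusted limma p of these 4 genes lay between 0.608 and 0.631. Pdk1 was 0.28 as the mean over its probes and Insig2 -0.13 with the acinar covariate, both with an unadjusted limma p above 0.05, while a normexp offset of 0 gave 0.74 for Pdk1, 0.73 for Zfp395 and -0.64 for Slc2a1. The 7 that were not tested, for lack of signal, were Plod2, Lox, Stc1, Car12, Hmox1, Cxcr4 and Epo, of which all but Hmox1 were above background on none of the arrays. Of 18 glycolytic HIF targets 17 were tested, and 13 lay above 0, with a median of 0.15, where 51.5% of all tested genes lay above 0. At an unadjusted limma p of 0.05, 2 were higher, Eno2 by 0.31 and Pfkl by 0.18, with adjusted values of 0.680 and 0.688. These 2 calls fell to 0 or 1 in 15 of 20 alternatives, and to 0 under median scaling, with the acinar covariate, with the processed signal and without control replicate 3 or Wnt4βKO replicate 3. The genes of the pathway lay on both sides of 0, and the calls at an unadjusted p numbered 2 of 14, 7 of 33 and 2 of 17 beside 8.99% of all tested genes.

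**Figure D5:**
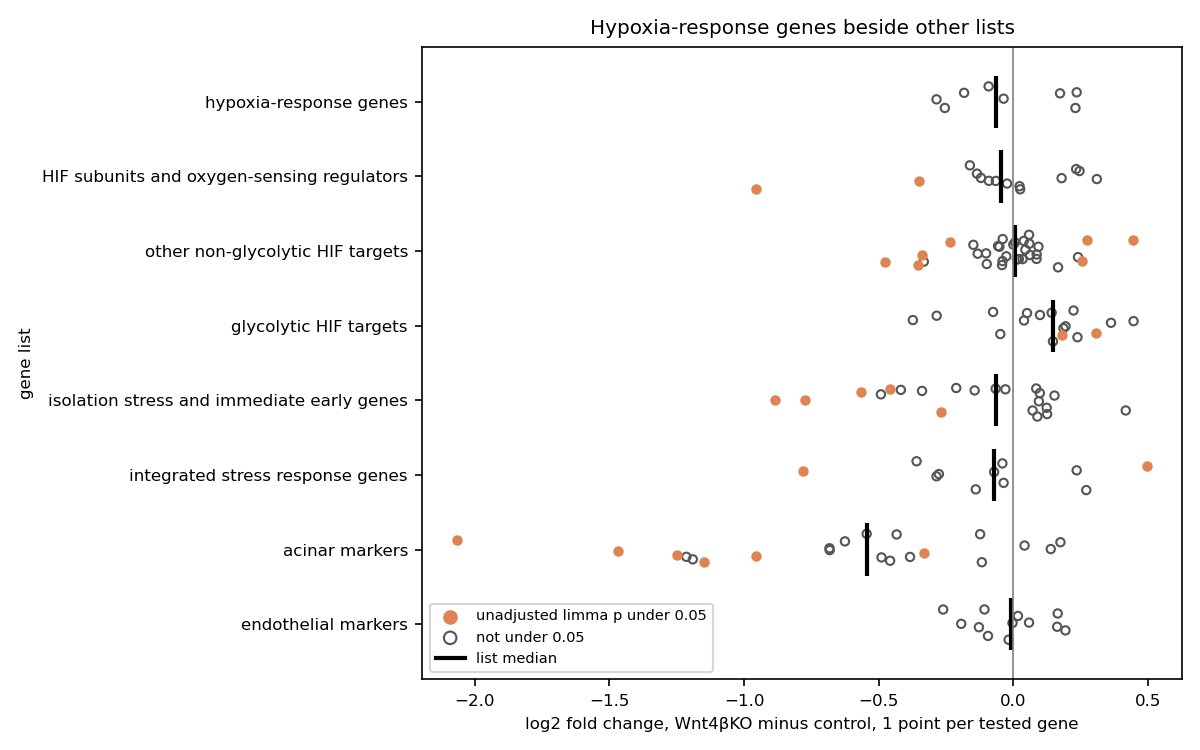
Log2 fold change (x axis, Wnt4βKO minus control) of each tested gene, 1 point per gene and 1 line per list (y axis), filled where the unadjusted limma p was under 0.05, with the list median as a black bar. No hypoxia-response gene is filled and their median is -0.064, while the acinar markers have a median of -0.54.

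The make-up of the islet preparations was read beside these values. Of 21 acinar markers 18 had differences below 0 and 3 above 0, where 51.5% of all tested genes lay above 0, and their median was -0.54. At an unadjusted limma p of 0.05, 6 passed, all lower in Wnt4βKO islets, where 4.61% of all tested genes were lower. None passed an adjusted one. Their mean log2 signal lay between 13.49 and 13.61 in control and between 12.29 and 13.33 in Wnt4βKO arrays, lowest in Wnt4βKO replicates 1 and 4. With the acinar mean as a covariate, the difference of Egln1 was 0.091, that of Car9 0.0032 and that of the brightest Vegfa probe 0.16, so that the sign of these 3 depended on it. Of 12 endothelial markers, all tested, none passed an unadjusted limma p of 0.05, and their mean lay between 7.63 and 7.94 in control and between 7.45 and 8.08 in Wnt4βKO arrays. Of 11 pericyte and stromal markers 10 were tested and none passed either, with means between 6.82 and 7.72 in control and between 6.63 and 7.72 in Wnt4βKO arrays. Of 12 immune markers 11 were tested and none passed, though 10 differences lay above 0 and 1 below, with a median of 0.15. Their means lay between 7.32 and 7.47 in control and between 7.28 and 8.16 in Wnt4βKO arrays. The part of these cells in the hypoxia-response values was not tested.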

How the data were processed

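Islet RNA of 3 control and 4 Wnt4βKO samples was hybridised to single-colour Agilent arrays after Cy3 labelling of 50 ng. The authors deposited the scanner output of each array as spot intensity on a linear scale, not yet normalized, and its headers name Agilent Feature Extraction 12.0.1.1. Used here were the median intensity of spot and local background and, as an alternative, the processed signal.

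As in the study's methods, background was removed by normexp (offset 50) over all spots. Control spots were then dropped and log2 values quantile normalized. Outlier spots became missing (65 values among tested probes), and repeated spots were averaged. A probe was tested if at least 3 of 7 arrays had it well above background (26151 of 56605). The 2 groups were compared by a moderated linear model (limma 3.58.1, R 4.3.3) with two-sided p-values, Benjamini-Hochberg adjusted over tested probes. The brightest tested probe stood for its gene. RefSeq accessions named 32994 probes (58.3%), and promoter sequences are RefSeq's, both on GRCm38.p6. No probe coordinates are given, since the array was designed on another build. Correlations (Python 3.11.15) carry exact two-sided permutation p-values and were chosen after seeing the data.

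Genes named were all members, Wnt4 and up to 4 per list with the lowest unadjusted p under 0.05. Epas1, Hif3a, Arnt, Hif1an and Egln2 were added after their values were seen. The members and lists were chosen with earlier results of these data known. A control sample that the study excluded for quality is not analysed here. The sources used here do not say whether an array holds 1 mouse or pooled mice, and p-values measure the spread between these samples.

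A deposited value table on the log2 scale (36693 probes, column medians 4.96 to 4.97) was checked against the arrays. After centring of probes, its columns correlated at -0.081 to 0.093 with their own array and at -0.097 to 0.121 with others, so it was left out, and its background correction and centring remain unknown. The fit was tested on simulated data of 26102 probes, in which 28%, 80%, 74% and 94% of probes given log2 changes of 0.5, 1, 1.5 and 2 were called. Each share rests on 50 probes drawn at random. The simulated noise was independent between probes and many probes were changed, so these shares need not hold for the data. Alternatives changed the background correction, offset, signal, normalization, filter, variance model, array weights, covariates, block, probe summary and arrays included.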

Additional observations from a re-analysis of the deposited data

How the results depend on the processing

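No hypoxia-response gene passed an adjusted limma p of 0.05 in any of 20 alternatives, the lowest being 0.581 (Bnip3 without control replicate 4). Leaving out each array in turn gave 0 to 2 members at an unadjusted limma p of 0.05, beside 7.17% to 10.8% of all tested genes. These were Hif1a and Ankrd37 without control replicate 3 and Bnip3 without control replicate 4. It gave 0 to 2 members without overlap, in each case by dropping the only control that overlapped the Wnt4βKO arrays. The share of all genes without overlap was not computed for these fits. The median over the members was 0.067 with the acinar mean as a covariate and -0.13 to 0.17 when arrays were left out. Probes past the adjusted threshold numbered 4, against 7 with the processed signal, 2 with the replicate number as a block, 2 with the acinar covariate and 2 to 5 with arrays left out. With the mean over a gene's probes 2 genes passed, beside 3 genes by the reported fit. The Vegfa probe A_52_P638895 turned to 0.036 with the processed signal, 0.053 with array weights, 0.074 with the replicate block, 0.16 with the acinar covariate, 0.027 with the slide row as a block and 0.14 with the mean over probes, and ranged from -0.16 to 0.18 with arrays left out. Car9 turned to 0.0032 and Egln1 to 0.091 with the acinar covariate (-1.13 and -0.0072 with the processed signal), and the insulin gene Ins1, at 0.30 by the reported fit, to -0.027 under cyclic loess. With arrays left out, Hif1a ranged from -0.021 to 0.42, Ddit4 from -0.43 to 0.0064 Vegfa A_51_P482552 from -0.10 to 0.30, Vegfa A_52_P249424 from 0.11 to 0.47, Egln1 from -0.32 to -0.11, Bnip3 from -0.43 to -0.16, Ankrd37 from 0.10 to 0.43, Ndrg1 from 0.058 to 0.41 and Car9 from -0.14 to -0.053. The cause was not tested for any of these. Same-numbered arrays correlated at -0.129, 0.230 and -0.00565 in their deviations from group means. With so few arrays these values cannot show whether same-numbered samples were paired. The replicate block put no member past the adjusted threshold. Unadjusted calls covered 3.47% of genes under median scaling and 3.21% with the acinar covariate, under which none of the 7 further HIF targets called outside glycolysis was counted. Adm, Egln3 and Car9 are limited by signal near background.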

Other observations

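Stress-response genes of the islet preparations were read beside the oxygen-response genes. Of 27 immediate early and isolation stress genes 21 were tested, and 5 were lower in Wnt4βKO islets at an unadjusted limma p of 0.05 (4.61% of all tested genes were) while none was higher and none passed an adjusted one. The count was 3 under median scaling, with the replicate number as a block, with the mean of acinar markers (lower in every Wnt4βKO array) as a covariate and without Wnt4βKO replicate 4. Calls in either direction over all tested genes fell to 3.47% under median scaling and 3.21% with the acinar covariate. Nfkbia, which holds the transcription factor NF-κB in the cytoplasm, differed by -0.46 ± 0.10 (SE) with no overlap of the groups and an adjusted limma p of 0.480. Gadd45b differed by -0.89 ± 0.25 (SE) with overlap. The heat shock genes Hspa1a and Hspa1b differed by -0.77 and -0.57 (-0.58 and -0.49 with the acinar covariate, where the unadjusted limma p was 0.180 and 0.177, and -0.47 and -0.28 without control replicate 4), but they are nearly identical in sequence and their probes may not separate them. Fos, Egr1 and Jun, the first genes of the immediate early response, differed by -0.029, 0.15 and -0.21 and were lowest in Wnt4βKO replicate 1.

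Of 11 genes of the integrated stress response, 1 was higher and 1 lower at an unadjusted limma p of 0.05. Over all tested genes 4.38% were higher and 4.61% lower by that threshold. The list holds Vegfa, Ndrg1 and Ddit4 too. Sesn2, a restraint on mTORC1 like Ddit4, differed by 0.50 ± 0.12 (SE), and Chac1, which degrades glutathione, by -0.78 ± 0.24 (SE), both without overlap and with adjusted limma p of 0.519 and 0.608. Sesn2 was 0.22 with the acinar covariate, with an unadjusted limma p of 0.0869, and that of Chac1 was 0.0654 with the replicate number as a block. Fos, Egr1 and Jun were named after their values were seen.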
